A study of Mus musculus with 8 samples.

Results

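The genes described are those of transforming growth factor beta (TGF-beta) and bone morphogenetic protein (BMP) signalling, read in mouse brain tumor and naive brain. They were chosen by symbol alone: Tgfb1 to Tgfb3, Tgfbr1 to Tgfbr3, numbered Bmp and Gdf genes, Inhba and Inhbb, the BMP and activin receptors, the Smad genes, Id1 to Id4, Nog and Grem1. The rule found 51 of the 55414 genes in the deposited table. Of these, 48 had enough counts to be tested, among 24356 tested genes in all.

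The libraries are RNA-seq of tissue labelled brain tumor or naive brain from a mouse model of supratentorial ependymoma, a tumor of the upper brain driven by the ZFTA-RELA fusion, where RELA encodes a subunit of NF-kB. There were 4 groups with 2 libraries in each: naive brain and tumor of vehicle mice, and naive brain and tumor of mice given MRX-2843. MRX-2843, which blocks the receptor kinases MERTK and FLT3, was given at 50 mg/kg by oral gavage once daily for 5 days. Tissue was taken 1 h after the last dose. Mice are described as randomised once MRI showed a tumor, and whether this covers the source of the naive brain is not stated. The labels give the ZFTA-RELA fusion as the genotype of all 8 samples, naive brain included, and enter the drug's name as the cell line of all 8. They give neither strain nor age, nor whether naive brain came from mice that carried a tumor, nor the cell type or promoter behind the fusion. The libraries of a group are called duplicates with no word on separate animals. The p-values below may thus reflect technical spread alone.

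Ligands of this superfamily bind pairs of type I and type II receptor kinases at the cell surface. The type I receptor then phosphorylates receptor-regulated SMADs: SMAD2 and SMAD3 for TGF-beta and activin, and SMAD1, SMAD5 and SMAD9 for BMP. These join SMAD4 and enter the nucleus, where they switch on genes that include the inhibitory SMADs (SMAD6, SMAD7) and, for BMP, the ID genes. In brain, BMP signals favour astrocyte fates and restrain neurogenesis, while TGF-beta is known for its part in vessels, microglia and the extracellular matrix.

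The libraries held 51150569 to 112938462 counts. Values below are CPM, which are read counts set to one common library size, with library totals scaled by TMM (trimmed mean of M values), with library 1 before library 2 of each group. Fold changes are log2 values ± SE with 2 libraries per group, and a gene was called where its adjusted p was under 0.05 in edgeR's quasi-likelihood test. A count of 0 allows up to 3 counts, or 0.0281 to 0.0615 CPM by library, and this limit covers counting error only. The vehicle tumor libraries stood apart from the other 6. Pearson's r of log2(CPM + 1) across the tested genes was 0.823 to 0.834 between vehicle tumor and any other group, and 0.985 to 0.986 between MRX-2843 tumor and vehicle naive brain. By this measure the libraries labelled MRX-2843 tumor lay near naive brain. Mitochondrially encoded genes took 3.26 and 3.37% of counts in vehicle tumor and 14.7 to 18.5% in the others. Xist had 25657 to 56676 counts in the MRX-2843 libraries against 36 to 193 in the vehicle libraries, and the Y-linked Ddx3y had 0 against 2168 to 6717. Treatment therefore cannot be told apart from this sex-linked difference, nor from a number in the column names that the labels do not explain. All 4 MRX-2843 libraries, naive brain and tumor, carry the same number, 3 of the 4 vehicle libraries share another, and vehicle naive brain 2 has its own.

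Marker lists of cell types moved with the same groups. The summed level of 10 mural and fibroblast markers was 10366 to 10488 CPM in vehicle tumor and 171 to 192 CPM in the other 6 libraries. Most of the vehicle tumor sum came from the collagen genes Col1a1 and Col3a1. Summed macrophage and monocyte markers (12 genes) were at 588 to 595 CPM against 44.0 to 58.4, microglia markers (10) at 1974 to 2038 against 279 to 375, and endothelial markers (10) at 716 to 719 against 194 to 214. Neuron markers (12) ran the other way, at 677 to 689 CPM in vehicle tumor and 5546 to 10042 elsewhere. Oligodendrocyte markers (10) were at 535 to 555 CPM in vehicle tumor, 7639 to 7699 in vehicle naive brain, 7726 to 7782 in naive brain under MRX-2843 and 14609 to 15064 in MRX-2843 tumor. In vehicle tumor against vehicle naive brain 7 of the 10 mural and fibroblast markers, all 12 macrophage and monocyte markers and all 10 each of the microglia and endothelial markers rose, while all 12 neuron and all 10 oligodendrocyte markers fell. None of these 6 lists had a marker at 0 in both libraries of a group. Oligodendrocyte precursor markers (7) were also high in vehicle tumor, at 1319 to 1361 CPM against 261 to 445 in the other libraries, with 6 higher and 1 lower than in vehicle naive brain. Astrocyte markers (10) summed to 4317 to 4374 CPM in vehicle tumor and 3086 to 3863 elsewhere, with 3 higher and 5 lower, and Gfap among them was at 2676 and 2735 CPM in vehicle tumor and 143 and 144 in vehicle naive brain. Meningeal fibroblast markers (8) were at 1109 to 1125 CPM in vehicle naive brain, 1008 to 1011 in vehicle tumor, 796 to 811 in naive brain under MRX-2843 and 322 to 341 in MRX-2843 tumor. Their directions were mixed, with 4 higher and 2 lower in vehicle tumor than in vehicle naive brain. Choroid plexus markers (8) summed to 169.6 to 170.4 CPM in vehicle tumor and 7.49 to 30.8 elsewhere. Only 1 of these markers was called higher in vehicle tumor than in vehicle naive brain, while 2 were lower and 5 were not called. Markers of ependymal cells (11), the lining cells for which the tumor is named, summed to 34.8 to 36.1 CPM in vehicle tumor, 30.1 to 32.2 in MRX-2843 tumor, 15.7 to 16.9 in MRX-2843 naive brain and 7.58 to 7.64 in vehicle naive brain. Single markers did not all follow this sum: 4 were higher and 3 lower in vehicle tumor than in vehicle naive brain. In MRX-2843 tumor 8 were higher and 2 lower than in vehicle tumor. Ak7 and Pifo were at 0 in vehicle tumor, Mia and Tmem212 in vehicle naive brain, and Mia in MRX-2843 tumor. T and NK cell markers (10) summed to 31.0 to 32.5 CPM in vehicle tumor against 3.43 to 3.90 in vehicle naive brain, where Cd3d, Cd3g, Gzmb, Klrb1c and Nkg7 were at 0. The same sum was 16.9 to 18.1 CPM in MRX-2843 naive brain and 27.6 to 31.2 in MRX-2843 tumor, most of it from Cd4, at 16.0 and 17.0 and 26.2 and 30.5 CPM there against 2.20 and 2.54 in vehicle tumor. In bulk tissue, fewer cells of a type and less RNA per cell cannot be told apart, and the part of cell makeup in the results below was not tested.

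Promoter windows of 3 members that were high in vehicle tumor are shown, those of a ligand, a receptor and an inhibitory SMAD, because each holds a motif of NF-kB or of SMADs. They run from 200 bases before to 20 after the RefSeq transcription start on GRCm38.p6, 5′ to 3′ on the gene's own strand, with the motif in capitals. The Tgfb1 window is chr7:25686802-25687021 on the plus strand, that of Tgfbr2 is chr9:116175344-116175563 on the minus strand, and that of Smad6 is chr9:64022040-64022259 on the minus strand.
Tgfb1: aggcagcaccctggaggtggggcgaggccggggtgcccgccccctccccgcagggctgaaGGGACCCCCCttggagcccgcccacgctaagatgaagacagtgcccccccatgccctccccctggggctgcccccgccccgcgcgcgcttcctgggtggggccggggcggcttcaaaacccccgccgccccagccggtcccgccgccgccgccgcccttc
Tgfbr2: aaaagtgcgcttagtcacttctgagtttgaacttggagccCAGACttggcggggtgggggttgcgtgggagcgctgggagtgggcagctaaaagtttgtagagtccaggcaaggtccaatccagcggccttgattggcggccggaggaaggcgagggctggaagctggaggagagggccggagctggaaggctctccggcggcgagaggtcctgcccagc
Smad6: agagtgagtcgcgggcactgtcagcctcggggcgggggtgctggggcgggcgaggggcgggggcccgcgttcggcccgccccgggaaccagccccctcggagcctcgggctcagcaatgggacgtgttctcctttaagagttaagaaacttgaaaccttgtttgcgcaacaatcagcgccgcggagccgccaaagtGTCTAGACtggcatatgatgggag
The capitals in Tgfb1 match the NF-kB consensus at positions -140 to -131 from the start, in Tgfbr2 the SMAD motif CAGAC at -160 to -156, and in Smad6 the palindromic SMAD element GTCTAGAC at -4 to 4, across the start itself. Both strands were searched, and the matches shown do not overlap. RefSeq windows were found for 35 of the 51 members. Of all 32851 windows of this length in the table, 39.1% held CAGAC, 9.31% the BMP-type motif GGCGCC, 6.52% the NF-kB consensus and 0.122% GTCTAGAC. Among the 35 members, 12 held CAGAC, 6 held GGCGCC, 3 held the NF-kB consensus (Tgfb1, Acvr1b and Gdf7) and 1, Smad6, held GTCTAGAC. Some members have several windows. Counted by window, as the background is, these were 13, 6, 3 and 1 of 42. A match describes the letters only and is not shown to be a bound site.

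Vehicle tumor had the highest group mean for 34 of the 48 tested members, vehicle naive brain for 7, MRX-2843 naive brain for 4 and MRX-2843 tumor for 3. This was not counted over all tested genes, so it is a description and no measure of the family. Against vehicle naive brain, 36 members were called in vehicle tumor (75%), where 60.1% of all tested genes were called. Of these, 28 were higher and 8 lower, or 58.3% and 16.7% of members against a background of 29.3% and 30.8%. The higher members include Bmp10, Gdf3, Gdf6 and Gdf15, which passed the count filter only through vehicle tumor and could not have been called lower. How many genes of the background passed in this way was not counted. The median log2 difference was 1.10 over members and -0.03 over all tested genes. With the MRX-2843 tumor libraries set against vehicle tumor, 39 members were called against a background of 60.4%, with 7 higher and 32 lower (14.6% and 66.7%, background 30.6% and 29.8%). Both comparisons share the vehicle tumor libraries, so their opposite signs are not separate evidence. Far fewer members were called between tumor and naive brain of MRX-2843 mice, 16 against a background of 24.4%, with 13 higher and 3 lower (27.1% and 6.25%, background 12.4% and 11.9%). Between the 2 naive brain groups 17 were called against a background of 21.5%, with 2 higher and 15 lower (4.17% and 31.2%, background 9.78% and 11.7%). The interaction, which asks whether the tumor-to-brain difference itself differed between MRX-2843 and vehicle, was called for 33 members against a background of 51.6%, negative for 23 and positive for 10 (47.9% and 20.8%, background 25.3% and 26.3%).

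**Figure D1:**
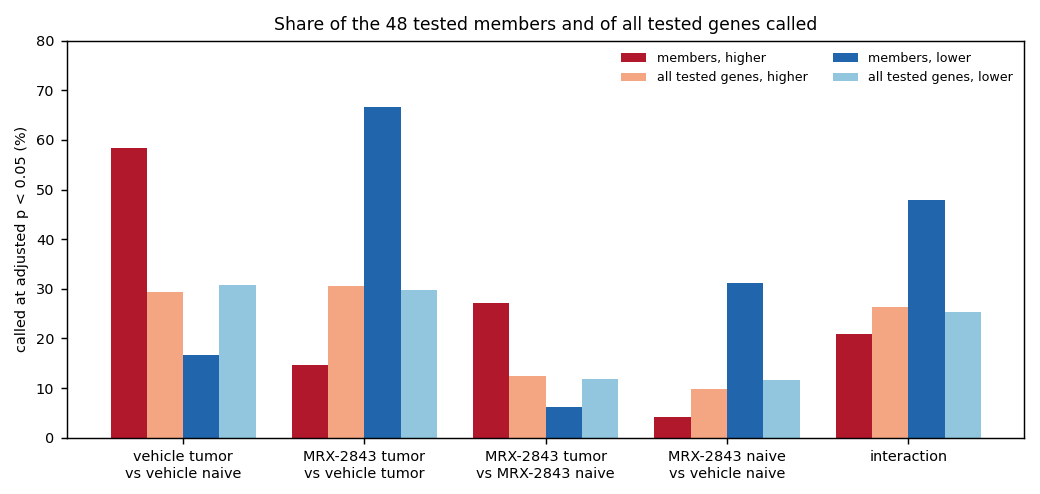
Share of the 48 tested members and of the 24356 tested genes called higher or lower in each comparison, in percent of each set. Members were called higher in vehicle tumor in 58.3% of cases against 29.3% of all genes, and lower in MRX-2843 tumor against vehicle tumor in 66.7% against 29.8%. Bmp10, Gdf3, Gdf6 and Gdf15 passed the count filter only through vehicle tumor.

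**Figure D2:**
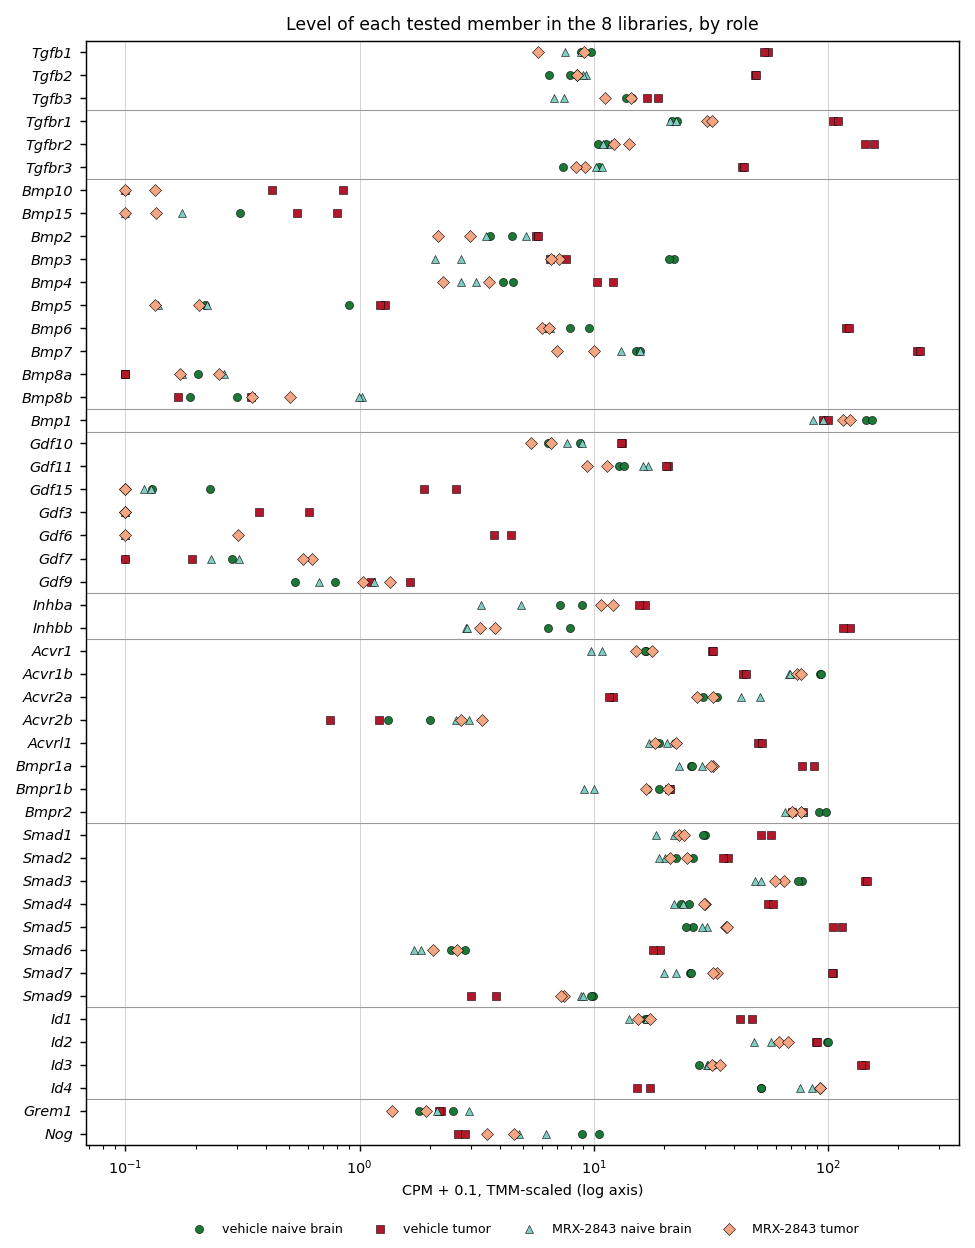
CPM plus 0.1 of each tested member in the 8 libraries on a log axis, grouped by role, with 1 symbol per library and no error bars. The vehicle tumor squares lie to the right of all other libraries for Tgfb1, Tgfbr2, Bmp6, Bmp7, Inhbb and Smad6, and to the left for Id4, Acvr1b and Smad9.

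Among the TGF-beta ligands, Tgfb1 and Tgfb2 rose in vehicle tumor over vehicle naive brain, and Tgfb3 did not pass the test. Tgfb1 (chr7:25687002-25705077) encodes the isoform made widely by myeloid and stromal cells and was at 8.71 and 9.62 CPM in vehicle naive brain, 55.8 and 53.6 in vehicle tumor, 8.76 and 7.48 in naive brain under MRX-2843 and 5.70 and 9.02 in MRX-2843 tumor. Vehicle tumor alone was high, and the other 6 libraries overlapped. The log2 difference was 2.58 ± 0.17 against vehicle naive brain (adjusted p = 4.25e-09) and -2.89 ± 0.18 for MRX-2843 tumor against vehicle tumor (adjusted p = 1.52e-09). Tgfb2, the isoform known in development of the heart and eye, read 7.87 and 6.35 CPM in vehicle naive brain, 48.7 and 49.2 in vehicle tumor, 9.21 and 8.91 in naive brain under MRX-2843 and 8.42 and 8.43 in MRX-2843 tumor. Its differences were 2.78 ± 0.13 over vehicle naive brain (adjusted p = 6.49e-11) and -2.54 ± 0.13 for MRX-2843 tumor over vehicle tumor (adjusted p = 1.91e-10). Tgfb3 had another pattern, with 13.7 and 14.5 CPM in vehicle naive brain, 16.8 and 18.8 in vehicle tumor, 6.67 and 7.37 in naive brain under MRX-2843 and 14.3 and 11.1 in MRX-2843 tumor. Its lowest libraries were those of MRX-2843 naive brain, -1.0 ± 0.16 against vehicle naive brain (adjusted p = 0.000272), and its tumor difference of 0.34 ± 0.15 under vehicle did not pass (adjusted p = 0.0682). The fall of Tgfb3 from vehicle tumor to MRX-2843 tumor, -0.49 ± 0.15 (adjusted p = 0.0127), did not hold with MRX-2843 tumor library 2 left out (adjusted p = 0.128) or with vehicle tumor library 2 left out (0.0819).

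All 3 TGF-beta receptor genes rose in vehicle tumor and were lower in MRX-2843 tumor. Tgfbr2, the type II receptor that binds the ligand first, stood at 10.4 and 11.2 CPM in vehicle naive brain, 144 and 158 in vehicle tumor, 10.9 and 11.7 in naive brain under MRX-2843 and 12.2 and 14.1 in MRX-2843 tumor. No other library came near the vehicle tumor pair, and the differences were 3.81 ± 0.10 (adjusted p = 5.68e-14) and -3.52 ± 0.10 (adjusted p = 1.35e-13). Tgfbr1, the type I receptor kinase, was measured at 22.7 and 21.5, 105 and 111, 21.2 and 22.5 and 30.6 and 31.9 CPM in the same order of groups. Here MRX-2843 tumor also lay above MRX-2843 naive brain, by 0.51 ± 0.08 (adjusted p = 0.00024), while its rise in vehicle tumor was 2.29 ± 0.08 (adjusted p = 2.04e-12). Tgfbr3, the co-receptor betaglycan, gave 10.4 and 7.27, 43.1 and 43.9, 10.1 and 10.8 and 9.06 and 8.31 CPM, highest in vehicle tumor, a rise of 2.30 ± 0.16 (adjusted p = 4.58e-09). Tgfbr2 and Tgfbr3 were called neither between the naive brain groups nor between tumor and naive brain of MRX-2843 mice.

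The BMP ligands split. Of the 10 tested, 4 rose in vehicle tumor (Bmp4, Bmp6, Bmp7 and Bmp10), Bmp3 fell and 5 were not called. That is 40% higher and 10% lower, where 29.3% and 30.8% of all tested genes were, so the share that rose lies near the background. Bmp10 passed the count filter only through vehicle tumor and could not have been called lower there. Bmp7, a ligand of kidney, eye and forebrain development, had 15.1 and 15.6 CPM in vehicle naive brain, 240.2 and 247 in vehicle tumor, 15.8 and 13.0 in naive brain under MRX-2843 and 6.89 and 9.92 in MRX-2843 tumor. The vehicle tumor pair was far above all others, at 3.99 ± 0.13 over vehicle naive brain (adjusted p = 5.78e-13), and the MRX-2843 tumor pair was the lowest, -0.76 ± 0.13 against MRX-2843 naive brain (adjusted p = 0.00061). Bmp6, known as the liver signal that sets hepcidin, gave 9.43 and 7.82, 119 and 123, 6.07 and 6.38 and 5.94 and 6.34 CPM in the same order. It rose by 3.81 ± 0.11 in vehicle tumor (adjusted p = 1.45e-13) and was lower by -4.30 ± 0.11 in MRX-2843 tumor against vehicle tumor (adjusted p = 6.33e-14). Bmp6 shares exon positions with Txndc5 on the opposite strand, whose mean was 50.0 CPM in vehicle naive brain, 120.3 in vehicle tumor, 57.5 in naive brain under MRX-2843 and 42.6 in MRX-2843 tumor. The strand setting of the counting is not given, so reads of this pair cannot be told apart where the exons meet.

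Bmp4, a ligand of dorsal forebrain patterning, stood at 3.99 and 4.44 CPM in vehicle naive brain, 10.3 and 12 in vehicle tumor, 2.61 and 3.04 in naive brain under MRX-2843 and 2.18 and 3.47 in MRX-2843 tumor, with a rise of 1.40 ± 0.25 (adjusted p = 0.000193). Bmp3, which opposes other BMPs and is known from bone, went the other way: 22.0 and 20.9 CPM in vehicle naive brain, 6.43 and 7.51 in vehicle tumor, 2.01 and 2.62 in naive brain under MRX-2843 and 7.02 and 6.48 in MRX-2843 tumor. Vehicle naive brain was high, MRX-2843 naive brain low, and both tumor groups overlapped in between. Its difference was -1.62 ± 0.17 between the vehicle groups (adjusted p = 9.36e-07) and -0.05 ± 0.17 between the tumor groups (adjusted p = 0.837). Bmp2, a close relative of Bmp4, was at 5.56 and 5.68 CPM in vehicle tumor against 4.39 and 3.50 in vehicle naive brain, which did not pass (adjusted p = 0.134), and was lower in MRX-2843 tumor, at 2.07 and 2.87 CPM (log2 difference -1.18 ± 0.29, adjusted p = 0.00241).

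The remaining BMP ligands were near the floor. Bmp10, the heart ligand, had 94 counts over both vehicle tumor libraries and 0 in vehicle naive brain. With the latter set to 3 counts over the group, that is a rise of at least 24.5-fold. MRX-2843 tumor had 2 counts of Bmp10, and the ratio of vehicle tumor to it was 31.3 with a 95% counting interval of 8.42 to 262. The interval and the folds given as lower bounds, here and below, take counts as independent reads and leave out spread between libraries. Low counts were mostly even, so these 2 may be the reads of 1 pair, and the limits may be too tight. Bmp5, a ligand of skeletal growth, read 1.19 and 1.12 CPM in vehicle tumor against 0.804 and 0.119 in vehicle naive brain, with a difference called between the tumor groups (-4.03 ± 1.16, adjusted p = 0.0075). Bmp8a, Bmp8b and Bmp15 were at 0.923 CPM or less in every library and were called in no comparison, and reads of the near-identical paralogs Bmp8a and Bmp8b may have been split by the counting. Bmp1 carries the family name but encodes a procollagen protease, and was abundant in all groups at 146 and 154, 95.6 and 100.3, 95.1 and 86.8 and 117 and 124 CPM. It was lower in vehicle tumor than in vehicle naive brain by -0.62 ± 0.07 (adjusted p = 9.2e-07), with MRX-2843 naive brain lowest. Its rise in MRX-2843 tumor over vehicle tumor, 0.30 ± 0.07 (adjusted p = 0.00121), was not called without scaling of library totals (0.07, adjusted p = 0.373).

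Of the 10 growth and differentiation factor (GDF) genes, 7 were tested and 5 rose in vehicle tumor, with none lower (71.4% higher, background 29.3%). Gdf3, Gdf6 and Gdf15 had few or no counts outside vehicle tumor and passed the count filter only through that group. They could not have been called lower there, so the share is no measure of the GDF genes. Gdf6, a ligand of retina and joint development, had 3.65 and 4.35 CPM in vehicle tumor and 0 in all 4 naive brain libraries, and in MRX-2843 tumor 0 in library 1 and 0.202 CPM (12 counts) in library 2. Vehicle tumor was thus at least 183-fold above vehicle naive brain, the latter set to 3 counts over the group. The call between MRX-2843 tumor and its naive brain (adjusted p = 0.0458) rests on those 12 counts of library 2. It was lost without that library (adjusted p = 1), without either MRX-2843 naive brain library (0.0647 and 0.171), with counts halved (0.0604) and under DESeq2 (0.505), which also did not call Gdf6 between the tumor groups (0.32). Gdf15, a stress-induced cytokine, was found at 2.47 and 1.79 CPM in vehicle tumor, 0.129 and 0.0298 in vehicle naive brain, 0.0205 and 0.0281 in MRX-2843 naive brain and 0 in both MRX-2843 tumor libraries. It rose by 4.71 ± 0.92 in vehicle tumor (adjusted p = 0.00051) and was at least 82.5-fold higher there than in MRX-2843 tumor. Gdf3, a ligand of the early embryo, had 0.509 and 0.272 CPM in vehicle tumor and 0 in the other 6 libraries.

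Gdf11, a ligand that patterns the posterior axis, was at 12.8 and 13.4 CPM in vehicle naive brain, 20.7 and 20.2 in vehicle tumor, 17.0 and 16.2 in naive brain under MRX-2843 and 11.4 and 9.31 in MRX-2843 tumor. Its order was opposite within the treatments, higher in tumor under vehicle (0.64 ± 0.13, adjusted p = 0.000663) and lower in tumor under MRX-2843 (-0.68 ± 0.14, adjusted p = 0.00172). Gdf10, a close relative of Bmp3, rose to 13.1 and 13.0 CPM in vehicle tumor from 8.63 and 6.26 in vehicle naive brain (0.81 ± 0.19, adjusted p = 0.00187), and had 8.82 and 7.63 CPM in MRX-2843 naive brain and 6.47 and 5.30 CPM in MRX-2843 tumor. Gdf7, of the dorsal neural tube, and Gdf9, of the ovary, were at 1.54 CPM or less in every library and were not called. The 3 genes not tested were Gdf5, with at most 18 counts in a library, Gdf2, with 4 counts in 1 library, and Gdf1, with 0 in all and exons shared with Cers1 and Upf1.

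Both activin subunit genes rose in vehicle tumor, and their levels parted. Inhbb, the beta B subunit, was at 7.87 and 6.26 CPM in vehicle naive brain, 124 and 116 in vehicle tumor, 2.75 and 2.77 in naive brain under MRX-2843 and 3.16 and 3.68 in MRX-2843 tumor. Its log2 difference of 4.09 ± 0.12 in vehicle tumor (adjusted p = 2.63e-13) and of -5.13 ± 0.13 between the tumor groups (adjusted p = 5.49e-14) separated all libraries. Inhba, the beta A subunit that neurons induce with activity, gave 8.84 and 7.12, 16.5 and 15.5, 3.20 and 4.82 and 10.7 and 12 CPM in the same order. It was higher in tumor under vehicle (1.0 ± 0.19, adjusted p = 0.000368) and under MRX-2843 (1.48 ± 0.20, adjusted p = 7.39e-05), with an interaction that did not pass (adjusted p = 0.171). The smaller difference between tumor groups, -0.50 ± 0.19 (adjusted p = 0.0362), did not hold with library 1 of MRX-2843 tumor (0.157) or of vehicle tumor (0.104) left out.

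Of the 8 receptors of BMP and activin, 3 rose in vehicle tumor (Bmpr1a, Acvr1, Acvrl1), 3 fell (Acvr1b, Acvr2a, Bmpr2) and 2 were not called (Bmpr1b, Acvr2b). At 37.5% each way, these shares lie near those over all tested genes (29.3% higher, 30.8% lower). Bmpr1a, a type I receptor of BMP2 and BMP4, was at 26.0 and 26.1 CPM in vehicle naive brain, 78.0 and 87.4 in vehicle tumor, 23.1 and 29.1 in naive brain under MRX-2843 and 32.2 and 31.5 in MRX-2843 tumor, a rise of 1.66 ± 0.10 (adjusted p = 1.89e-09). Acvrl1, the ALK1 receptor of endothelial cells, stood at 19.0 and 22.2, 50.5 and 52.4, 20.5 and 17.2 and 18.3 and 22.4 CPM over the 4 groups (1.32 ± 0.12, adjusted p = 2.27e-07), and the summed endothelial markers given above were high in the same 2 libraries. Acvr1, the ALK2 receptor, had 16.6 and 16.5, 32.0 and 32.3, 9.68 and 10.8 and 17.7 and 15.1 CPM over the 4 groups. It was higher in tumor under both treatments, by 0.96 ± 0.12 under vehicle (adjusted p = 5.59e-06) and 0.68 ± 0.12 under MRX-2843 (adjusted p = 0.000907).

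The receptors that fell in vehicle tumor were 2 activin receptors and the BMP type II receptor. Acvr1b, the activin type I receptor ALK4, was at 92.7 and 93.2 CPM in vehicle naive brain, 43.5 and 44.6 in vehicle tumor, 68.6 and 69.1 in naive brain under MRX-2843 and 74.0 and 77.0 in MRX-2843 tumor. Vehicle tumor was lowest without overlap, by -1.08 ± 0.06 against vehicle naive brain (adjusted p = 9.66e-10). Acvr2a, an activin type II receptor, showed 33.7 and 29.2, 12 and 11.5, 42.4 and 51.5 and 32.4 and 27.4 CPM in that order, a fall of -1.42 ± 0.12 (adjusted p = 8.9e-08). It shares exon positions with Orc4 on the other strand, whose mean was 37.2 CPM in vehicle naive brain against 22.9 in vehicle tumor. Bmpr2, the BMP type II receptor, had 91.9 and 98.0 CPM in vehicle naive brain against 70.6 and 78.2 in vehicle tumor, a small difference of -0.35 ± 0.09 (adjusted p = 0.00285). Acvr2b was low, at 0.648 and 1.11 CPM in vehicle tumor and 2.60 and 3.24 in MRX-2843 tumor, and was called between those groups only (1.73 ± 0.42, adjusted p = 0.00219). Summed neuron and oligodendrocyte markers, given above, were lowest in the same vehicle tumor libraries, though the neuron marker Rbfox3 was lower in both MRX-2843 groups.

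**Figure D3:**
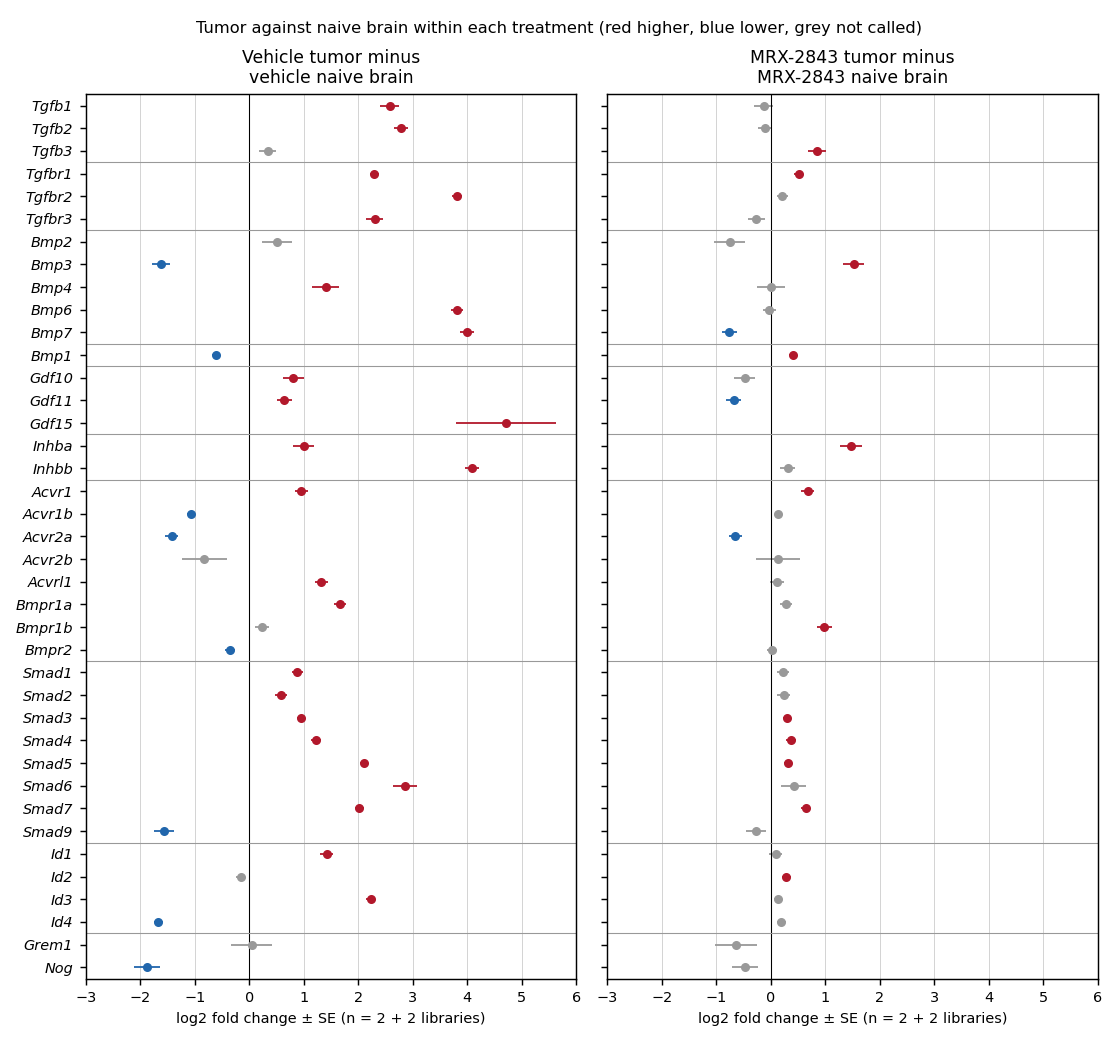
log2 fold change ± SE of tumor against naive brain under vehicle (left) and under MRX-2843 (right), for members whose vehicle group means sum to at least 2 CPM, with no point where a group had 0 counts. Called differences run from -1.88 for Nog to 4.71 for Gdf15 on the left, while on the right they lie between -0.76 for Bmp7 and 1.52 for Bmp3.

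Among the 8 SMAD genes, 7 rose in vehicle tumor and Smad9 fell (87.5% and 12.5%, background 29.3% and 30.8%). The receptor-regulated SMADs of the BMP branch differed among themselves. Smad5 was at 26.5 and 24.7 CPM in vehicle naive brain, 105 and 115 in vehicle tumor, 30.4 and 28.8 in naive brain under MRX-2843 and 36.7 and 36.9 in MRX-2843 tumor, a rise of 2.11 ± 0.08 (adjusted p = 5.08e-12). Smad1 rose less, from 29.9 and 29.3 CPM to 51.8 and 57.3 CPM (0.88 ± 0.10, adjusted p = 2.4e-06). Smad9, by contrast, dropped from 9.89 and 9.65 CPM to 3.72 and 2.88 CPM (-1.56 ± 0.19, adjusted p = 4.23e-06), and the MRX-2843 tumor libraries had 7.40 and 7.17 CPM. Of the TGF-beta branch, Smad3 gave 77.6 and 74.4, 144 and 148, 49.0 and 51.9 and 64.9 and 59.4 CPM over the 4 groups, a rise of 0.94 ± 0.07 in vehicle tumor (adjusted p = 8.79e-09). Smad2, its partner, rose by 0.58 ± 0.11 (adjusted p = 0.000445), to 37.6 and 35.5 CPM. Smad4, the shared partner of both branches, went from 25.6 and 23.4 CPM to 55.7 and 58.3 CPM (1.22 ± 0.09, adjusted p = 1.5e-08), with 22.1 and 24.0 CPM in naive brain and 29.8 and 29.5 CPM in tumor of MRX-2843 mice.

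The inhibitory SMADs, which both branches switch on and which damp the receptors, rose as well. Smad7 had 25.8 and 26.1 CPM in vehicle naive brain, 106 and 104 in vehicle tumor, 22.4 and 20 in naive brain under MRX-2843 and 33.6 and 32.3 in MRX-2843 tumor. Vehicle tumor stood alone, by 2.02 ± 0.08 (adjusted p = 9.94e-12), and MRX-2843 tumor was above its naive brain by 0.64 ± 0.08 (adjusted p = 4.22e-05). Smad6, whose window above holds the palindromic element, was at 19.1 and 17.9 CPM in vehicle tumor and from 1.61 to 2.73 CPM in the other 6 libraries, with a rise of 2.86 ± 0.22 (adjusted p = 1.85e-08).

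The ID genes, helix-loop-helix inhibitors of differentiation factors and textbook targets of BMP signalling, did not move as one. Id3 had 32.4 and 28.1 CPM in vehicle naive brain, 144 and 139 in vehicle tumor, 30.3 and 30.6 in naive brain under MRX-2843 and 32.1 and 34.7 in MRX-2843 tumor. Id1 followed at 16.5 and 16.9, 47.2 and 42.3, 16.8 and 14.0 and 17.3 and 15.3 CPM. For both, only the vehicle tumor pair was high, with rises of 2.23 ± 0.08 (adjusted p = 3.62e-12) and 1.42 ± 0.12 (adjusted p = 6.63e-08). Id4 was the reverse, at 51.8 and 51.6 CPM in vehicle naive brain, 17.3 and 15.2 in vehicle tumor, 76.0 and 85.8 in naive brain under MRX-2843 and 92.8 and 92.4 in MRX-2843 tumor. It fell by 1.67 ± 0.08 on the log2 scale in vehicle tumor (adjusted p = 1.57e-10) and was higher in MRX-2843 tumor than in vehicle tumor by 2.51 ± 0.09 (adjusted p = 1.6e-12). Id2 was higher in every vehicle library than in any MRX-2843 library, with 99.5 and 100.4 and 89.0 and 89.8 CPM in the vehicle groups and 48.6 and 57.2 and 61.8 and 67.8 CPM in the MRX-2843 groups. Its tumor difference under vehicle, -0.16 ± 0.08, did not pass (adjusted p = 0.0926) and its sign turned without scaling of library totals (0.09). Under MRX-2843 it was higher in tumor by 0.29 ± 0.08 (adjusted p = 0.0157), a call lost without MRX-2843 naive brain 1 (0.18, adjusted p = 0.17) or MRX-2843 tumor 2 (adjusted p = 0.107).

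The secreted antagonists Nog and Grem1, which bind BMPs outside the cell, did not rise. Nog fell from 10.4 and 8.86 CPM in vehicle naive brain to 2.53 and 2.71 CPM in vehicle tumor (-1.88 ± 0.24, adjusted p = 7.07e-06), and was at 4.72 and 6.18 and 4.47 and 3.41 CPM in MRX-2843 naive brain and tumor. Grem1 read 2.40 and 1.70, 2.13 and 2.09, 2.83 and 2.04 and 1.83 and 1.28 CPM over the 4 groups and was called in no comparison. Nog sat just under the threshold between the tumor groups (0.59 ± 0.24, adjusted p = 0.0487), and that call was lost under 10 alternative settings besides a minimum fold change, with adjusted p from 0.0632 to 0.311.

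Per kilobase of exon, the order of levels differed between brain and tumor. The mean levels in vehicle naive brain were led by Id2 at 41.0 CPM per kb, Acvr1b at 21, Bmp1 at 16.9 and Id3 at 16.9. In vehicle tumor the order was Id3 at 79.0 CPM per kb, Bmp7 at 60.6, Id1 at 38.6, Id2 at 36.7, Bmp6 at 31.1, Inhbb at 28.2, Smad3 at 26.3 and Smad7 at 23.2. The ligand genes Bmp7, Bmp6 and Inhbb were thus among the 8 leading members there, and no ligand gene was among the 8 in vehicle naive brain. Id2 led both MRX-2843 groups as well, at 21.7 CPM per kb in naive brain and 26.6 in tumor, ahead of Id4 at 21 and 24.1. Exon lengths are from GENCODE M21, another release than the one behind the counts.

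Other genes of the pathway, which the symbol rule leaves out, were read in 7 lists with 82 genes, of which 77 were tested. In vehicle tumor against vehicle naive brain 41 rose and 17 fell (53.2% and 22.1%, where 29.3% and 30.8% of all tested genes did). The lists with no lower gene were latent TGF-beta storage and activation, with 11 of 13 higher and none lower, and TGF-beta response genes, with 13 of 15 higher and none lower. Lrrc32 (GARP, which tethers latent TGF-beta to the cell surface) had 5.22 and 4.47 CPM in vehicle naive brain, 137 and 149 in vehicle tumor, 4.14 and 3.52 in naive brain under MRX-2843 and 4.22 and 4.62 in MRX-2843 tumor. Ltbp3, a latent TGF-beta binding protein of the matrix, was at 47.1 and 55.3, 402 and 395, 104 and 94.4 and 53.4 and 58.5 CPM. Furin, the protease that cleaves the proforms, gave 37.8 and 35.7, 219.5 and 220.0, 27.1 and 27.0 and 35.0 and 38.9 CPM in that order (2.58 ± 0.07, adjusted p = 1.15e-13). For each of these 3 the vehicle tumor pair was above the other 6 libraries, and Ltbp3 was also higher in MRX-2843 naive brain than in vehicle naive brain (0.95 ± 0.08, adjusted p = 5.28e-07).

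The response genes with the smallest adjusted p were matrix genes. Col1a1, a chain of type I collagen, had 11.6 and 11.2 CPM in vehicle naive brain against 5512 and 5534 in vehicle tumor, and 6.80 and 6.85 CPM in MRX-2843 tumor. Col3a1 gave 2.50 and 2.06, 1743 and 1761 and 0.949 and 1.59 CPM in those groups, and Fn1 (fibronectin) 52.0 and 50.4, 835 and 870.1 and 51.3 and 50.8 CPM. Col1a1 and Col3a1 are also among the fibroblast markers summed above, so response to TGF-beta and fibroblast content cannot be told apart in them. Of the 8 tested BMP response genes 5 were higher and 2 lower (62.5% and 25%, background 29.3% and 30.8%). Tbx3, a T-box factor, was at 2.25 and 3.65 CPM and 28.4 and 29.2 CPM in the vehicle groups (3.29 ± 0.21, adjusted p = 2.95e-09). The 2 lower genes were Dlx5, from 4.26 and 4.63 CPM to 0.173 and 0.204 CPM, and Dlx2, from 7.25 and 6.48 to 0.416 and 0.340 CPM, which are homeobox genes that also mark GABAergic neurons.

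Extracellular antagonists split into 4 higher and 8 lower of 16 tested (25% and 50%, background 29.3% and 30.8%). Those with the smallest adjusted p were high: Fstl1, a follistatin-like protein, at 26.0 and 24.7 CPM in vehicle naive brain against 247 and 261 in vehicle tumor, and Bmper, which binds BMPs, at 2.35 and 3.67 and 76.5 and 89.3 CPM. Kcp, a chordin-like protein that in mouse kidney enhances BMP signalling, was at 4.61 and 4.71 and 76.7 and 91.7 CPM. None of the 8 lower antagonists is among these named genes. Among 9 co-receptors and other receptors 5 were higher and 1 lower (55.6% and 11.1%, same background). Eng (endoglin, of endothelial cells) went from 33.1 and 34.8 CPM to 109 and 116 CPM, and Rgmb, a BMP co-receptor, from 64.6 and 53.8 to 181 and 187 CPM. Acvr1c (ALK7, an activin-type receptor) was the 1 that fell, from 10.6 and 12.7 to 0.370 and 0.896 CPM (-4.19 ± 0.29, adjusted p = 5.36e-09).

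Intracellular modulators were even, with 5 higher and 5 lower of 12 (41.7% each way, background 29.3% and 30.8%). Ski, a corepressor of SMADs, rose from 135 and 130.2 CPM to 291 and 302 CPM. Fkbp1a, which holds type I receptors inactive, fell from 517 and 529.8 CPM to 166 and 167 CPM, and Nedd4l, a ubiquitin ligase of SMADs, from 128 and 133 to 26.1 and 28.7 CPM. Of 7 other ligands tested, Lefty1, a nodal inhibitor, rose from 0.258 and 0.477 to 5.50 and 5.31 CPM and Inha (inhibin alpha, which opposes activin) fell from 50.0 and 54.6 to 15.9 and 14.0 CPM. Lefty2 was near the floor at 0.0463 and 0.0227 CPM in vehicle tumor and 0.287 and 0.238 CPM in vehicle naive brain, which did not pass (adjusted p = 0.0565).

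MRX-2843 tumor against vehicle tumor was the comparison with the most members called. All 3 TGF-beta ligands, all 3 of their receptors and both activin subunits were lower in MRX-2843 tumor. So were 6 of 10 BMP ligands, 5 of 7 GDF ligands and 7 of 8 SMADs, where 29.8% of all tested genes were lower. As given above, the Tgfb3 and Inhba calls did not hold with a library left out, and DESeq2 did not call Gdf6. Bmp10, Gdf3, Gdf6 and Gdf15 passed the count filter only through vehicle tumor, so they could not have been called higher in MRX-2843 tumor. The largest called differences among members with counts in all groups were Inhbb at -5.13 ± 0.13, Bmp7 at -4.86 ± 0.14, Bmp6 at -4.30 ± 0.11, Bmp5 from low counts at -4.03 ± 1.16, Tgfbr2 at -3.52 ± 0.10 and Smad6 at -3.05 ± 0.22. The 7 members that were higher were Acvr1b (0.78 ± 0.06), Acvr2a (1.35 ± 0.12), Acvr2b, Smad9 (1.14 ± 0.19), Id4, Bmp1 and Nog. Of the 77 pathway genes, 20 were higher and 44 lower (26% and 57.1%, background 30.6% and 29.8%), with none of the 13 storage genes and none of the 15 response genes higher. The summed markers of fibroblasts, macrophages, microglia and vessels were lower, and those of neurons and oligodendrocytes higher, in the same MRX-2843 tumor libraries. Whether the drug or the tissue sampled set these values cannot be told apart in this design.

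Tumor against naive brain under MRX-2843 showed smaller differences. Bmp3 was higher in tumor by 1.52 ± 0.19 (adjusted p = 2.77e-05) and Inhba by 1.48 ± 0.20, the largest rises among called members apart from Gdf6. Bmpr1b, a type I receptor for BMP and GDF5, was at 18.9 and 16.8 CPM in vehicle naive brain, 21 and 21 in vehicle tumor, 9.97 and 8.96 in naive brain under MRX-2843 and 20.6 and 16.7 in MRX-2843 tumor, and rose by 0.98 ± 0.14 (adjusted p = 0.000103). For Bmp3, Tgfb3, Inhba, Bmpr1b, Acvr1 and Bmp1 the MRX-2843 naive brain pair had the lowest mean of the 4 groups, so the higher value in MRX-2843 tumor is measured from that low pair. The 3 lower members were Bmp7, Gdf11 and Acvr2a (-0.65 ± 0.12, adjusted p = 0.000911). Among the SMADs 4 were higher, by 0.30 ± 0.07 for Smad3, 0.36 ± 0.09 for Smad4, 0.32 ± 0.08 for Smad5 and 0.64 ± 0.08 for Smad7. Of these 4 calls, that of Smad7 held in every fit that left out a library, and each of the other 3 was lost without 1 library (MRX-2843 tumor 1 for Smad3, MRX-2843 naive brain 1 for Smad4 and 2 for Smad5; adjusted p 0.0581, 0.0718 and 0.0676). Of the 77 pathway genes 24 were higher and 16 lower (31.2% and 20.8%, background 12.4% and 11.9%).

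Naive brain differed between the treatments too, mostly downward under MRX-2843. Bmp3 fell most, from 22.0 and 20.9 CPM to 2.01 and 2.62 CPM (-3.19 ± 0.19, adjusted p = 1.74e-08), with no overlap. Inhbb (-1.35 ± 0.13, adjusted p = 3e-06), Tgfb3 and Inhba (-0.97 ± 0.20, adjusted p = 0.00249) followed in size. Id2 fell from 99.5 and 100.4 to 48.6 and 57.2 CPM (-0.91 ± 0.08, adjusted p = 9.16e-07), Bmpr1b by 0.92 ± 0.14 and Bmp1 by 0.73 ± 0.07 on the log2 scale. Acvr1 (-0.69 ± 0.12), Smad3 (-0.59 ± 0.07), Smad1 (-0.55 ± 0.10), Acvr1b (-0.43 ± 0.06) and Bmpr2 (-0.39 ± 0.09) were lower by less. The 2 members that rose were Id4, to 76.0 and 85.8 CPM from 51.8 and 51.6 (0.65 ± 0.08, adjusted p = 3.31e-05), and Acvr2a, to 42.4 and 51.5 CPM from 33.7 and 29.2 (0.58 ± 0.12, adjusted p = 0.0024). The calls of Bmp6 (-0.47 ± 0.11), Nog (-0.82 ± 0.23) and Smad7 (-0.30 ± 0.08) were each lost when a library was left out: vehicle naive brain 1 for all 3 (adjusted p 0.107, 0.166 and 0.0722), MRX-2843 naive brain 1 for Nog (0.158), and vehicle naive brain 2 or MRX-2843 naive brain 2 for Smad7 (0.0923 and 0.19). That of Bmp6 was also lost with only the 2 groups compared in the fit (0.0584) and without both vehicle tumor libraries (0.0615). Of the 77 pathway genes 12 were higher and 21 lower (15.6% and 27.3%, background 9.78% and 11.7%).

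Markers of brain regions moved with these naive brain values. Of 3 regional lists written after values had been seen, cortical excitatory neuron genes (8) summed to 2216 to 2221 CPM in vehicle naive brain, 331 to 345 in naive brain under MRX-2843 and 1119.8 to 1181 in MRX-2843 tumor. Striatal projection neuron genes (8) summed to 414 to 415, 2129.6 to 2163 and 1864 to 1964 CPM in the same groups, and thalamic and midbrain neuron genes (8) to 102 to 104, 275 to 293 and 79.3 to 85.2 CPM. Red cell markers (6) were at 939 to 1002 CPM in vehicle naive brain and 73.4 to 77.5 in MRX-2843 naive brain. The part of the region sampled, of sex or of blood in the differences of Bmp3, Id2, Id4 and the rest was not tested.

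**Figure D4:**
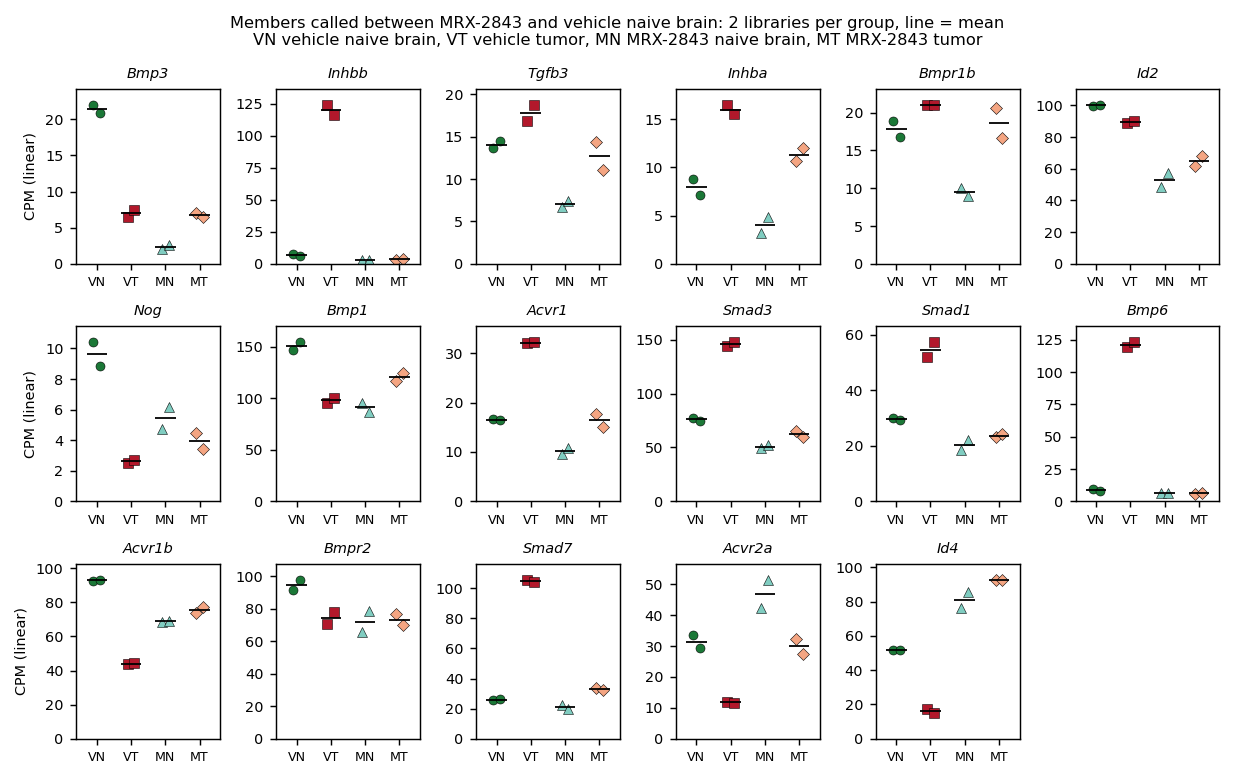
CPM in each library on linear axes from 0 for the 17 members called between the naive brain groups, with points for libraries and a line for the mean of 2. MRX-2843 naive brain was below vehicle naive brain for 15 members, such as Bmp3, Inhbb and Tgfb3, and above it for Acvr2a and Id4.

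The interaction asked whether tumor differed from brain by another amount under MRX-2843 than under vehicle. It was called for 51.6% of all tested genes. By role, it was called for 5 of 10 BMP ligands, 3 of 7 GDF ligands, 1 of 2 activin subunits and 1 of 2 secreted antagonists. It was also called for 6 of 8 BMP and activin receptors and for Bmp1. The remaining roles had it for all 3 TGF-beta receptors, 2 of 3 TGF-beta ligands, 7 of 8 SMADs and all 4 ID genes. That of Id2 (0.45 ± 0.11, adjusted p = 0.00346) was lost without scaling of library totals (0.23, adjusted p = 0.096). Among called members with counts in all groups, the largest negative values were -4.75 ± 0.18 for Bmp7 (adjusted p = 7.87e-12), -3.84 ± 0.15 for Bmp6, -3.78 ± 0.18 for Inhbb and -3.60 ± 0.14 for Tgfbr2. The positive values of called members were led by Bmp3 at 3.14 ± 0.25 (adjusted p = 5.62e-08), Id4 at 1.86 ± 0.12 and Nog at 1.40 ± 0.34. Members without a called interaction included Inhba, Acvr1 (adjusted p = 0.194), Tgfb3 (adjusted p = 0.0646) and Smad2 (adjusted p = 0.0982), for which the design did not show that the tumor difference varied with treatment.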

How the data were processed

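The authors deposited raw counts of reads for 55414 genes in 8 libraries, all of them whole numbers and not normalized. STAR 2.7.7a, SAMtools, featureCounts, Subread and the builds hg38 and mm10 are named, without roles or order, per the submitters' processing notes. The strand setting, the handling of read pairs and the annotation are not given in the sources used here. Even numbers made up 77.7 to 81.1% of counts between 1 and 10, so the reads of a pair may have been counted singly. Counts were therefore also halved as an alternative chosen after seeing the data, as were fits without both MRX-2843 tumor or both vehicle tumor libraries.

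The main test was edgeR 4.0.16 (R 4.3.3), with TMM scaling and genes kept by filterByExpr at a minimum count of 10. All 8 libraries entered a quasi-likelihood fit with a mean for each of the 4 groups, which left 4 residual degrees of freedom and a common biological variation of 21% (coefficient). P-values were adjusted by Benjamini-Hochberg over all 24356 tested genes. The script was checked on simulated counts. Tables and plots were made in Python 3.11.15 (matplotlib 3.10.9 for plots, pandas 2.3.3 for tables).

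The members, gene lists and tests were chosen with earlier results of these data known. Values in every library are given for up to 4 members of each role with the smallest adjusted p in vehicle tumor against vehicle naive brain, and for up to 10 called in each comparison within MRX-2843 mice or within naive brain. Of each list of other pathway genes, 3 are named by the same rule. Levels of further members are given as description, and those were added after their values were seen.

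Positions and exon lengths are from GENCODE M21 (GRCm38). Of the gene identifiers, 52081 (94.0%) matched it without their version and 35 with it, so the counts used another release. Of the 51 members, 14 share an exon with another gene. Promoters are from RefSeq on GRCm38.p6. Replicate libraries differed by more than counting noise and were kept as separate samples.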

Additional observations from a re-analysis of the deposited data

Results flagged for a closer look

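For 27 of the 33 members whose libraries are described one by one, the tumor-to-brain difference itself differed between MRX-2843 and vehicle mice, by the interaction term of edgeR's quasi-likelihood fit (adjusted p under 0.05, log2 values below). The difference was smaller, absent or opposite in sign under MRX-2843, with a negative value, for 19 members. Among ligands the values were -2.71 for Tgfb1, -2.89 for Tgfb2, -1.40 for Bmp4, -3.84 for Bmp6, -4.75 for Bmp7, -1.29 for Gdf10, -1.33 for Gdf11 and -3.78 for Inhbb. Among receptors they were -1.78 for Tgfbr1, -3.60 for Tgfbr2, -2.57 for Tgfbr3, -1.38 for Bmpr1a and -1.21 for Acvrl1. SMADs and targets gave -0.64 for Smad3, -0.86 for Smad4, -1.79 for Smad5, -1.38 for Smad7, -1.33 for Id1 and -2.09 for Id3. Values were positive for 8 members: 3.14 for Bmp3, 1.02 for Bmp1, 1.21 for Acvr1b, 0.77 for Acvr2a, 0.75 for Bmpr1b, 0.45 for Id2, 1.86 for Id4 and 1.40 for Nog. That of Id2 fell to 0.23 and was not called without scaling of library totals (adjusted p = 0.096). Most of the 33 were chosen for a small adjusted p in vehicle tumor against vehicle naive brain, which is one side of the interaction, so their share is no measure of the family. Over all tested members the interaction was called for 33 of 48 (68.8%), and over all tested genes for 51.6%. Sex-linked transcripts and the number in the column names differ by treatment in all 8 libraries, and cannot be told apart from it.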

How the results depend on the processing

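The 118 called values of the members described one by one were refitted under each alternative that could give them, which left 89 of them with only the groups compared, 44 without both MRX-2843 tumor libraries and 30 without both vehicle tumor libraries. Of 2051 alternative values none changed sign, 1971 kept their call and 80 lost it, 45 of these where an absolute log2 difference of at least 1 was also asked for, and 71 of the 118 lost it under none. That minimum left 3 members called for MRX-2843 tumor against MRX-2843 naive brain and 2 between the naive brain groups, with 1363 and 1389 of all tested genes, and 9706 of all tested genes for MRX-2843 tumor against vehicle tumor. The numbers of members called stayed within 1.5 times the reported ones under all other settings. Leaving out 1 library at a time gave 34 to 37 members for vehicle tumor against vehicle naive brain, 35 to 40 between the tumor groups, 13 to 18 within MRX-2843 mice, 16 to 19 between the naive brain groups and 31 to 34 for the interaction. Over all genes the same ranges were 13098 to 14643, 13389 to 14767, 4666 to 6390, 3835 to 5684 and 11582 to 12064. The group with 1 library left was assumed to vary like the others. Deviations of same-numbered libraries correlated at -0.031 to 0.020 between groups, so replicate numbers showed no pairing. This cannot tell whether libraries of different groups came from the same animals. With a replicate block 35, 36, 17, 18 and 33 members were called in the same order of comparisons. DESeq2 1.42.0 called 36, 38, 16, 18 and 33. Without both MRX-2843 tumor libraries 37 members were called between the vehicle groups and 19 between the naive brain groups. Unscaled library totals moved the median of all genes by 0.24 for vehicle tumor against vehicle naive brain and by -0.21 between the tumor groups, and called 39 and 40 members. With 2 libraries per group, members under about 1 CPM could change call with few counts, as Gdf6 did.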
